A study of Mus musculus with 90 samples.

Results

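Day 8 of neural differentiation was compared with day 6 in wild-type (WT) cells, as 3 day 8 libraries set against 3 day 6 libraries. These 6 samples are all of the WT libraries of those days among the 36 samples of the neural count table and the 90 samples of the series, and were picked by line and day in the labels, not by measured values. The study put different forms of CBX7, a chromobox subunit of Polycomb repressive complex 1 (PRC1), into J1 mouse embryonic stem cells and followed gene expression as the cells differentiated. The WT line used here carries unmodified CBX7. Day 8 cells had been kept as aggregates in suspension without LIF for 4 days and then in 5 uM retinoic acid for another 4 days. Day 6 cells had the same aggregation and 2 days of retinoic acid. Feeder cells used for stem cell culture were removed, and the labels call the cells of both days neural progenitor cells. The libraries were made with a kit that keeps strand from total RNA after removal of rRNA, and each value below starts from the read count per gene. Levels are CPM, a gene's counts for every 1000000 counts of its library, after scaling of library sizes, given in the order of replicates 1, 2 and 3. A change is the log2 ratio of day 8 over day 6 with its standard error (SE), and a gene is said to rise or fall only at an adjusted p below 0.05 in edgeR's quasi-likelihood test over all genes tested.

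Retinoic acid is a vitamin A derivative that enters the nucleus and binds the receptors RARA, RARB and RARG, which sit on DNA with RXR partners. In the embryo it patterns the hindbrain and spinal cord, in part through the Hox genes, and it drives neural differentiation of cultured stem cells. Neural progenitors leave the cell cycle under proneural transcription factors such as NEUROG2, while Notch signalling and its HES targets hold neighbouring cells back as progenitors. In neurons the repressor REST, which keeps neuronal genes silent elsewhere, is reduced, and the neuronal microRNAs miR-9 and miR-124 act against the REST complex, miR-124 also against the splicing repressor PTBP1.

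The mature strands of miR-9 are shown because 2 of the RNAs that carry the miR-9 hairpins rose on day 8, with the seed (bases 2 to 8) in capitals. The sequences are those of RefSeq on GRCm38.p6, and both strands are spelled alike in the 3 miR-9 genes.
mmu-miR-9-5p: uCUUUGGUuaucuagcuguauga
mmu-miR-9-3p: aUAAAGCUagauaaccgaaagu
In Mir9-3 these strands lie at chr7:79505279-79505301 and chr7:79505318-79505339 on the plus strand, inside the host transcript Mir9-3hg (chr7:79500026-79534403). Mir9-2 (chr13:83738814-83738885) lies inside the noncoding RNA C130071C03Rik (chr13:83721381-83741308). The complement of the seed, ACCAAAG, occurs once in the longest annotated 3′ UTR of Rest on chromosome 5 (GENCODE vM21, bases 3181 to 3210 of 3448), where it is in capitals.
Rest: ttctgaggcaaACCAAAGgtatatttctca
The same 7 letters occur in the 3′ UTR of 13.5% of 15936 tested genes with an annotated one. They occur in 17.3% of 475 genes that fell and in 17.7% of 769 genes that rose, so both directions had a like share. The median 3′ UTR was 962 bases in genes that fell, 1840 in genes that rose and 1110 in all of them.

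Retinoic acid receptors bind directly repeated hexamers, and a spacing of 5 bases (DR5) is the form first described at Rarb. The 250 bases before a listed start of Rarb (chr14:16575477-16575726, minus strand) and of Cyp26a1 (chr19:37697558-37697807, plus strand) are shown from RefSeq, GRCm38.p6, because they are the list's retinoic acid genes that hold this element. The repeat is in capitals.
Rarb: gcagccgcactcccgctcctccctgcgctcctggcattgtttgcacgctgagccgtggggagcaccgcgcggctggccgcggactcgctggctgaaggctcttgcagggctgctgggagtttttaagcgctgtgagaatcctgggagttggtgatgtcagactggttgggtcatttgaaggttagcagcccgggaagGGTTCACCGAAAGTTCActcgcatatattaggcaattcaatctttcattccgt
Cyp26a1: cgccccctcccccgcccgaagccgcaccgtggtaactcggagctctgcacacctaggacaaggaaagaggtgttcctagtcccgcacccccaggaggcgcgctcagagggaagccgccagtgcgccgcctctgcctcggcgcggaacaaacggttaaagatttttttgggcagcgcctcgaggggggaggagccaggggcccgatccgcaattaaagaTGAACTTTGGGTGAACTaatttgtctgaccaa
The element ends 37 bases before the start in Rarb and, on the other strand, 16 bases before it in Cyp26a1. The search took 16 spellings, in which a hexamer, then NNNNN, then a hexamer follow each other on either strand of the 250 bases, and each hexamer is AGGTCA as in the consensus of nuclear receptors, or AGTTCA as in the second repeat of Rarb, or GGTTCA as in its first repeat, or GGGTCA as a further variant. Of 32851 promoters, 29 (0.0883%) held one, against 1 of 868 promoters (0.115%) of genes that rose, that of Rarb, and 0 of 474 promoters of genes that fell. Of the 2 genes, Rarb rose and Cyp26a1 did not pass the test. The match is a description of these letters and not a measured binding site.

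Libraries held 26.6 to 35.2 M counts on day 8 and 27.8 to 45.5 M on day 6 (M is 1000000), and the precursor RNA Rn45s took 16.4 to 24% of the counts on day 8 and 18.2 to 27.9% on day 6. No 2 libraries were identical. The labels do not say whether replicates were separate cultures, so the spread between replicate libraries may be technical. The p-values of the main fit rest on a spread shared by all lines and days of the neural count table. They do not rest on the spread of these WT libraries alone. Replicate 1 stood apart on both days: it had the highest Tubb3 of its day, and its summed level of 18 glycolysis and hypoxia genes was 2633 CPM against 4114 and 4115 CPM in the other day 8 libraries, and 2339 CPM against 5895 and 4674 CPM in the other day 6 libraries. Cbx7 itself, the gene that the study modified, had 19, 20.7 and 17.3 CPM on day 8 and 60.4, 27.2 and 32.2 CPM on day 6. It had 191, 157 and 162 CPM in the day 0 stem cells of the same line. All 3 day 8 libraries lay below all 3 day 6 libraries, with a log2 change of -1.07 ± 0.32 (SE) and an adjusted p of 0.039 (edgeR). The call was lost when any of the libraries but day 6 replicate 2 was left out, with an adjusted p of up to 0.266 without a single library.

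Between the 2 days, 1308 of 17818 genes tested (7.34%) changed. Of these, 818 (4.59% of genes tested) rose on day 8 and 490 (2.75%) fell. The groups did not overlap for 1272 of the 1308; over all genes tested, day 8 lay wholly above day 6 for 3063 (17.2%) and wholly below it for 2385 (13.4%). The rising side held the large changes: 658 genes rose and 269 fell by at least 2-fold, and 212 rose and 37 fell by at least 8-fold. The median change over all genes was 0.01 on the log2 scale. Genes that rose spanned a median of 34.5 kb, those that fell 23.6 kb and all genes tested 19.6 kb. The number of calls rests on single libraries: it was 442 without day 6 replicate 3, 602 without day 8 replicate 2, 609 without day 6 replicate 2 and 662 without day 8 replicate 1. With both replicate 1 libraries left out it was 386 (220 higher, 166 lower). Of the 122 genes named by rule, 49 then lost their call. Among the genes described below, this ended calls that had held without each single library: Lamp5 (adjusted p = 0.055), Heyl (0.0579), Celf4 (0.0618), Slc1a2 (0.0693), Rara (0.0704), Dcc (0.0766), Stmn2 (0.0819), Rab3a (0.0829), Foxd3 (0.0897) and Kirrel2 (0.109). Replicate numbers were taken to pair the samples, though the labels do not say what a number shares, and a fit of the 6 libraries with the number as a block, called the paired fit below, gave 3125 calls among 15536 genes, 1712 higher (11.0%) and 1413 lower (9.10%). All 1225 genes called in both fits had the same direction.

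**Figure D1:**
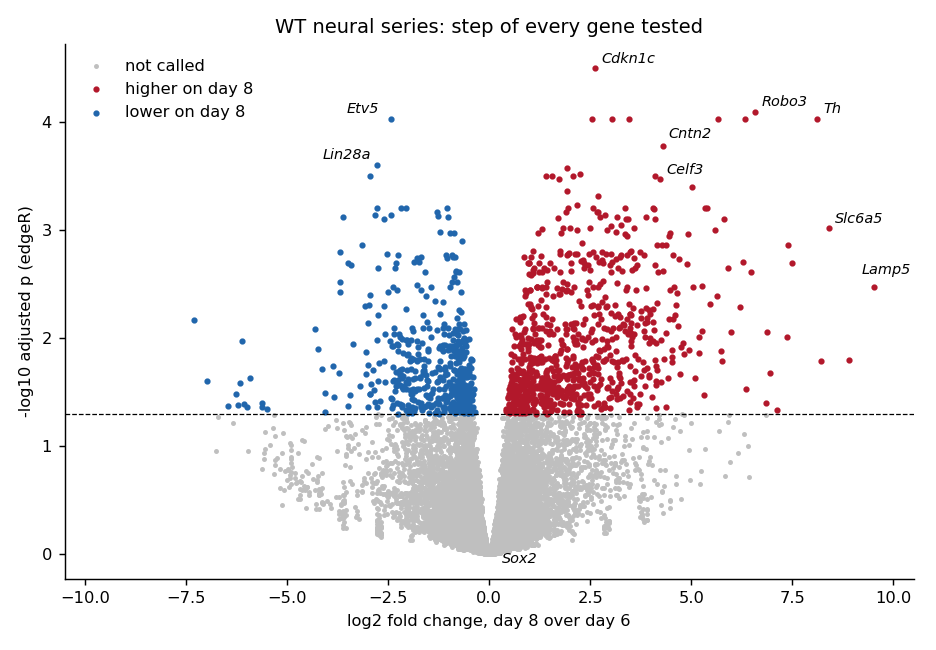
Each point is a gene tested in the WT day 8 against day 6 comparison, with the log2 change (day 8 over day 6) on the horizontal axis and −log10 of the adjusted p on the vertical axis, and the dashed line marks an adjusted p of 0.05. The 818 genes that rose reach farther from 0 than the 490 that fell.

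The 15 genes with the largest increases included receptors and transcription factors known from newborn neurons, several of them barely present on day 6. Robo3, the receptor that keeps commissural axons from being repelled before they cross the midline, had 309, 420 and 121 CPM on day 8, against 6.44, 1.10 and 1.34 CPM on day 6. It rose by 6.58 ± 0.82 (SE) on the log2 scale (adjusted p = 8.03e-05, edgeR), and the lowest day 8 library lay far above the highest day 6 library. In bulk RNA, more cells of a type and more of an RNA in each cell cannot be told apart. Scrt1, a zinc finger repressor of newborn neurons, had 98.1, 81.9 and 47.9 CPM on day 8 and 1.85, 0.329 and 0.636 CPM on day 6. Its relative Scrt2 had 119, 98.9 and 63.3 CPM on day 8 and 2.34, 1.55 and 1.72 CPM on day 6. The increases were 6.34 ± 0.84 for Scrt1 and 5.65 ± 0.77 for Scrt2 (SE, both with an adjusted p of 9.29e-05, edgeR), and neither gene's groups overlapped. Lhx5, a LIM homeodomain factor of spinal and hindbrain interneurons, had 69.6, 65.4 and 44.7 CPM on day 8 and 1.90, 0.610 and 0.70 CPM on day 6 (log2 change 5.80 ± 0.99). Myt1, a zinc finger factor that promotes neuronal differentiation, had 140, 120 and 89.7 CPM on day 8 and 3.64, 1.46 and 2.23 CPM on day 6 (log2 change 5.58 ± 0.97).

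A further set of the strongest genes had 0 to 3 counts in all of day 6. For these the ratio of counts is given with its 95% counting interval. Lamp5, a membrane protein of certain inhibitory neurons, had 886 counts on day 8 and 1 on day 6, a ratio of 1010 (180 to 39800). Slc6a5, the glycine transporter of glycinergic nerve terminals, had 735 counts on day 8 and 2 on day 6, a ratio of 418 (115 to 3460). Th, tyrosine hydroxylase of the catecholamine pathway, had 601 counts on day 8 and 2 on day 6, a ratio of 342 (94.2 to 2830). Its day 8 libraries were uneven, with 1.04, 10.7 and 6.31 CPM. Cartpt, a neuropeptide precursor, had 521 counts on day 8 and 3 on day 6, a ratio of 197 (67.2 to 960). The intervals cover counting error only. Kcnk10, a potassium channel, Kirrel2, an adhesion protein, and March4, a ubiquitin ligase, rose by 5.90, 5.45 and 7.50 on the log2 scale. Fstl5 rose by 5.99, and its call was lost without day 6 replicate 2 or day 6 replicate 3 (adjusted p up to 0.0581).

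Genes with the largest decreases included factors of the pluripotent cell and of Nodal signalling. Lin28a, the RNA-binding protein that blocks let-7 maturation, had 23.2, 57.5 and 50.3 CPM on day 8 and 230, 315 and 347 CPM on day 6. It fell by 2.77 ± 0.40 (SE) on the log2 scale (adjusted p = 0.00025, edgeR), with no overlap. Foxh1, the SMAD partner of Nodal signalling, had 0.178, 1.18 and 2.03 CPM on day 8 and 4.59, 9.01 and 15.9 CPM on day 6 (log2 change -3.14 ± 0.57). Nodal had 0.742, 0.996 and 1.69 CPM on day 8 and 4.89, 5.59 and 10.3 CPM on day 6 (log2 change -2.61 ± 0.44). For both, each day 8 library lay below each day 6 library. Others among the 15 lowest were Sfrp5, a secreted Wnt antagonist (-2.94 ± 0.62), Zscan10, a pluripotency zinc finger factor (-2.84 ± 0.47), Dppa5a (-2.76 ± 0.54), the noncoding RNA Lncenc1 (-2.74), the monoamine oxidase Maob (-3.68 ± 0.74), Kcnj12 (-3.42), Plcg2 (-2.53) and Cpn1 (-2.51). The remaining 4 lost the call without a single library. They were ccdc198 (-4.31) without day 8 replicate 2 (adjusted p = 0.0558), Prtg (-2.45), a cell-surface protein of the early neural plate, without day 8 replicate 1 (adjusted p = 0.0578), Aqp3 (-2.61) without day 8 replicate 1 or 2 or day 6 replicate 3 (up to 0.0881), and Efemp1 (-2.83) without any library but day 6 replicate 1 (up to 0.205).

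**Figure D2:**
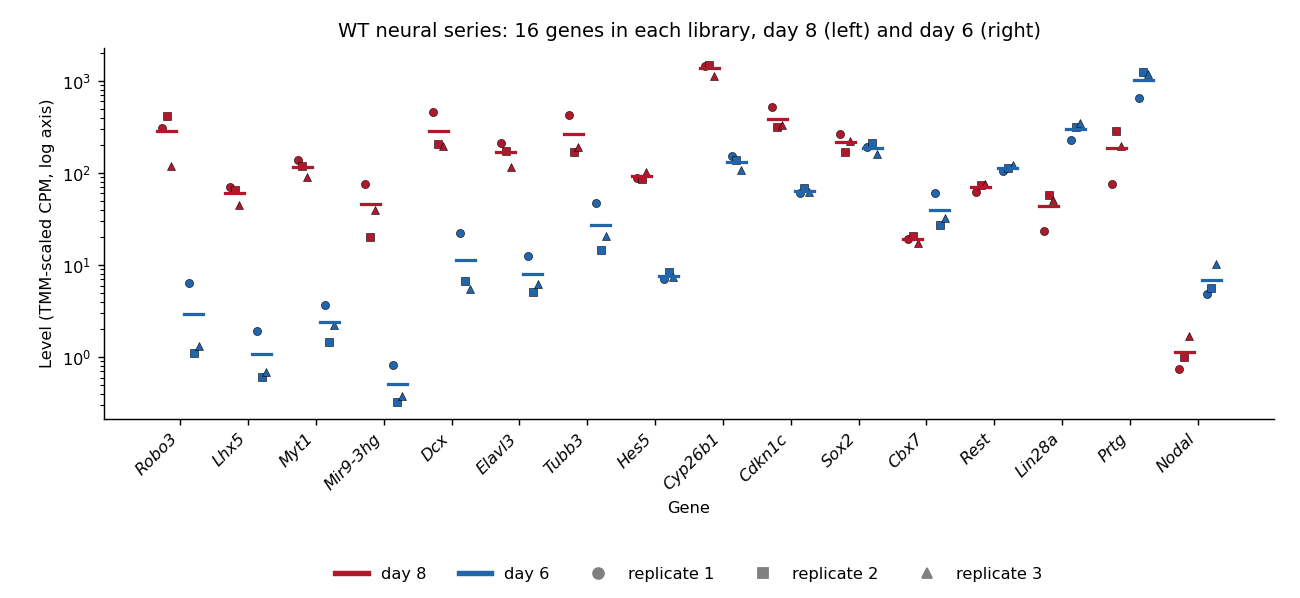
Levels of 16 genes in each library, in CPM on a log axis, with day 8 left of day 6; circles, squares and triangles are replicates 1, 2 and 3 and the bar is the mean of 3. Robo3, Lhx5, Myt1 and Mir9-3hg are far apart between the days, Sox2 overlaps between the days, and Lin28a, Prtg, Nodal, Rest and Cbx7 are lower on day 8.

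Of 26 proneural and early neuronal transcription factors tested, 19 rose and none fell, with a median log2 change of 2.79 beside 0.01 for all genes. Beside this and each later list stand 4.59% higher and 2.75% lower over all genes, and 11.0% and 9.10% in the paired fit. Nhlh1, a helix-loop-helix factor switched on as cells leave the cycle, had 61.9, 60.8 and 42.0 CPM on day 8 and 3.59, 2.35 and 3.34 CPM on day 6, an increase of 4.15 ± 0.75 (SE; adjusted p = 0.0014, edgeR). Ebf3, which acts in neuronal migration and maturation, had 95.6, 58.5 and 51.6 CPM on day 8 and 9.46, 6.10 and 5.41 CPM on day 6 (3.29 ± 0.65). Sox11, an abundant SOX factor of immature neurons, had 1896, 1563 and 1376 CPM on day 8 and 453, 497 and 332 CPM on day 6 (1.92 ± 0.36). None of these 3 overlapped between the days, and with Myt1, Scrt1 and Scrt2 they held in each fit without a library. Neurog2, the proneural factor of glutamatergic and motor lineages, had 32.2, 36.2 and 39.3 CPM on day 8 and 2.45, 1.92 and 0.572 CPM on day 6, with an adjusted p of 0.023. That call was lost without day 8 replicate 2 or without any of the day 6 libraries (adjusted p up to 0.127). Neurog1, with 99.4, 78.0 and 74.2 CPM on day 8 and 13.3, 18.9 and 9.48 CPM on day 6, did not pass (2.59 ± 0.98, adjusted p = 0.11). In the paired fit it did, with an adjusted p of 0.00041. With both replicate 1 libraries left out, 4 of the list's genes rose and none fell, and the median was 2.67.

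Of 35 factors that mark neuron subtypes, 8 rose (22.9%, beside 4.59% of all genes tested) and none fell, with a median of 1.51. In the paired fit 14 of 31 rose and 3 fell, beside 11.0% higher and 9.10% lower over all genes. Lbx1, which sets dorsal interneuron fate, had 35.4, 22.9 and 15.0 CPM on day 8 and 2.91, 0.634 and 0.70 CPM on day 6 (4.11 ± 0.80, adjusted p = 0.0021, edgeR). Lhx1, the partner of Lhx5, had 262, 220 and 158 CPM on day 8 and 35.9, 23.0 and 12.8 CPM on day 6 (3.16 ± 0.90, adjusted p = 0.029), and lost the call without any library but day 8 replicate 3 (up to 0.152). Pax8 and Prdm8 rose by 3.50 and 4.13, and both lost the call without day 6 replicate 2 or day 6 replicate 3 (adjusted p up to 0.0526 for Pax8 and 0.0691 for Prdm8). Ptf1a, the factor that selects inhibitory over excitatory fate in the dorsal cord, had 8.01, 3.18 and 3.72 CPM on day 8 and 0.217, 0.188 and 0.127 CPM on day 6. Its log2 change was 4.77 ± 1.48, which just missed the threshold at an adjusted p of 0.050, against 0.00074 in the paired fit. Markers of motor neurons did not pass: Mnx1 had 2.37, 6.49 and 11 CPM on day 8 and 2.56, 6.34 and 8.27 CPM on day 6, and Isl1 had 1.48, 3.01 and 3.45 CPM on day 8 and 1.01, 1.08 and 0.70 CPM on day 6. Without the replicate 1 libraries, 3 genes of the list rose and none fell.

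Axon guidance genes changed less uniformly, with 10 of 38 higher (26.3%) and 1 lower (2.63%), beside 4.59% and 2.75% of all genes tested (median 1.01). Cntn2, the adhesion protein TAG-1 of commissural axons, had 293, 391 and 216 CPM on day 8 and 20.8, 18.4 and 6.77 CPM on day 6 (4.29 ± 0.61, adjusted p = 0.00017, edgeR). Dcc, the netrin receptor that draws those axons to the midline, had 162, 214 and 176 CPM on day 8 and 11, 19.5 and 18.2 CPM on day 6 (3.50 ± 0.79, adjusted p = 0.0072). L1cam rose by 2.5 ± 0.49. The groups were apart for all 3 genes. The Robo receptors moved in different directions. Robo3, given above, and Robo1, with 240, 244 and 186 CPM on day 8 and 116, 77.4 and 68.0 CPM on day 6, rose. Robo2, with 23.3, 31.3 and 25.1 CPM on day 8 and 61.9, 80.7 and 85.9 CPM on day 6, fell by 1.52 ± 0.37 (SE; adjusted p = 0.013, edgeR; 0.0581 without day 6 replicate 3). With both replicate 1 libraries left out, 5 genes of the list rose and none fell.

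Structural and RNA-binding proteins of neurons rose broadly. Of 27 cytoskeletal genes, 19 rose and none fell (median 2.30), and their summed level was 9228, 5609 and 5984 CPM on day 8 and 2218, 2190 and 1652 CPM on day 6. Replicate 1 was the highest of day 8 and every day 8 sum was above every day 6 sum. Map2, a dendritic microtubule protein, had 476, 223 and 230 CPM on day 8 and 27.4, 20.8 and 14.8 CPM on day 6 (3.88 ± 0.65, adjusted p = 0.00076, edgeR). Dcx, the microtubule protein of migrating neurons, had 456, 209 and 196 CPM on day 8 and 22.2, 6.71 and 5.47 CPM on day 6 (4.64 ± 0.97, adjusted p = 0.0038). Both held without each single library, as did Mapt (3.17 ± 0.54), Tubb2b (2.30 ± 0.41), Stmn2 (2.82 ± 0.57) and the neurofilament gene Nefm (4.62 ± 0.99). Some of these RNAs were already present in the day 0 stem cells. Mean day 0 levels of Stmn2, Tubb2b and Mapt were 115, 146 and 11.7 CPM, above their day 6 means of 8.05, 113 and 3.31 CPM. For Stmn2 the day 0 mean was also above the day 8 mean of 56.8 CPM. Map2, with a mean of 13.5 CPM on day 0, was below its day 6 mean of 21.0 CPM. Tubb3, the beta-tubulin most used as a neuron marker, had 429, 168 and 192 CPM on day 8 and 46.7, 14.5 and 20.5 CPM on day 6 (3.27 ± 0.91, adjusted p = 0.026). In the day 0 libraries it had 90.9, 60.5 and 75.0 CPM. It lost the call without day 8 replicate 1, day 6 replicate 2 or day 6 replicate 3 (up to 0.127). Per kilobase of exon, the level of Tubb3 was 151 CPM on day 8 and 15.7 CPM on day 6, and that of Tubb2b was 289 CPM on day 8 and 58.9 CPM on day 6.

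Of 16 neuronal RNA-binding and splicing genes, 12 rose and none fell (median 2.90). Celf3 had 103, 99.9 and 53 CPM on day 8 and 6.12, 4.18 and 3.27 CPM on day 6 (4.23 ± 0.65, adjusted p = 0.00034, edgeR). Elavl3, which binds AU-rich elements in neuronal RNAs, had 214, 171 and 116 CPM on day 8 and 12.6, 5.16 and 6.23 CPM on day 6 (4.38 ± 0.79). Srrm4, the splicing factor that includes neuronal microexons, had 146, 124 and 87.5 CPM on day 8 and 10.7, 9.46 and 6.58 CPM on day 6 (3.73 ± 0.69). In each of these the day 8 libraries lay above every day 6 library. Celf4 rose by 2.88 ± 0.53. Without both replicate 1 libraries, 5 genes of this list and 7 of the cytoskeletal list rose and none fell.

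Genes of synapses, channels and transmitters that passed all rose. Of 33 synaptic genes, 18 rose and none fell (median 1.8). Unc13a, which primes synaptic vesicles, had 45.4, 99.2 and 36.1 CPM on day 8 and 7.61, 7.65 and 6.90 CPM on day 6 (3.03 ± 0.41, adjusted p = 9.29e-05, edgeR). Nrxn3 and the SNARE gene Snap25 rose by 4.1 ± 0.70 and 3.88 ± 0.80, and Rab3a by 1.79 ± 0.37. Of 35 transmitter and receptor genes, 13 rose and none fell (median 1.68). Gria2, an AMPA receptor subunit, had 14.1, 17.2 and 9.87 CPM on day 8 and 0.761, 0.422 and 0.382 CPM on day 6 (4.71 ± 0.90). Slc32a1, the vesicle transporter for GABA and glycine, had 17.3, 8.16 and 9.53 CPM on day 8 and 0.816, 0.0939 and 0.572 CPM on day 6 (4.57 ± 0.94). Gad2, which makes GABA, rose by 3.25 ± 0.89, a call lost without day 8 replicate 1, day 6 replicate 2 or day 6 replicate 3 (adjusted p up to 0.123). Of 20 ion channel genes, 5 rose and none fell (median 1.28), led by the sodium channel Scn3a with 54.9, 34.2 and 31.7 CPM on day 8 and 2.23, 0.188 and 0.572 CPM on day 6 (5.33 ± 0.86). The other four were Scn2a (2.13), Cacna1b (2.20), Cacna2d2 (1.8) and Cacnb3 (0.74), and each lost its call without day 8 replicate 1 or day 6 replicate 2, all but Scn2a also without day 8 replicate 2 or day 6 replicate 3, and Cacnb3 without day 6 replicate 1. Their highest adjusted p without a library was 0.109 for Scn2a, 0.195 for Cacna1b, 0.179 for Cacna2d2 and 0.173 for Cacnb3. Without both replicate 1 libraries, 6 synaptic, 4 transmitter and 1 channel gene rose and none fell.

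**Figure D3:**
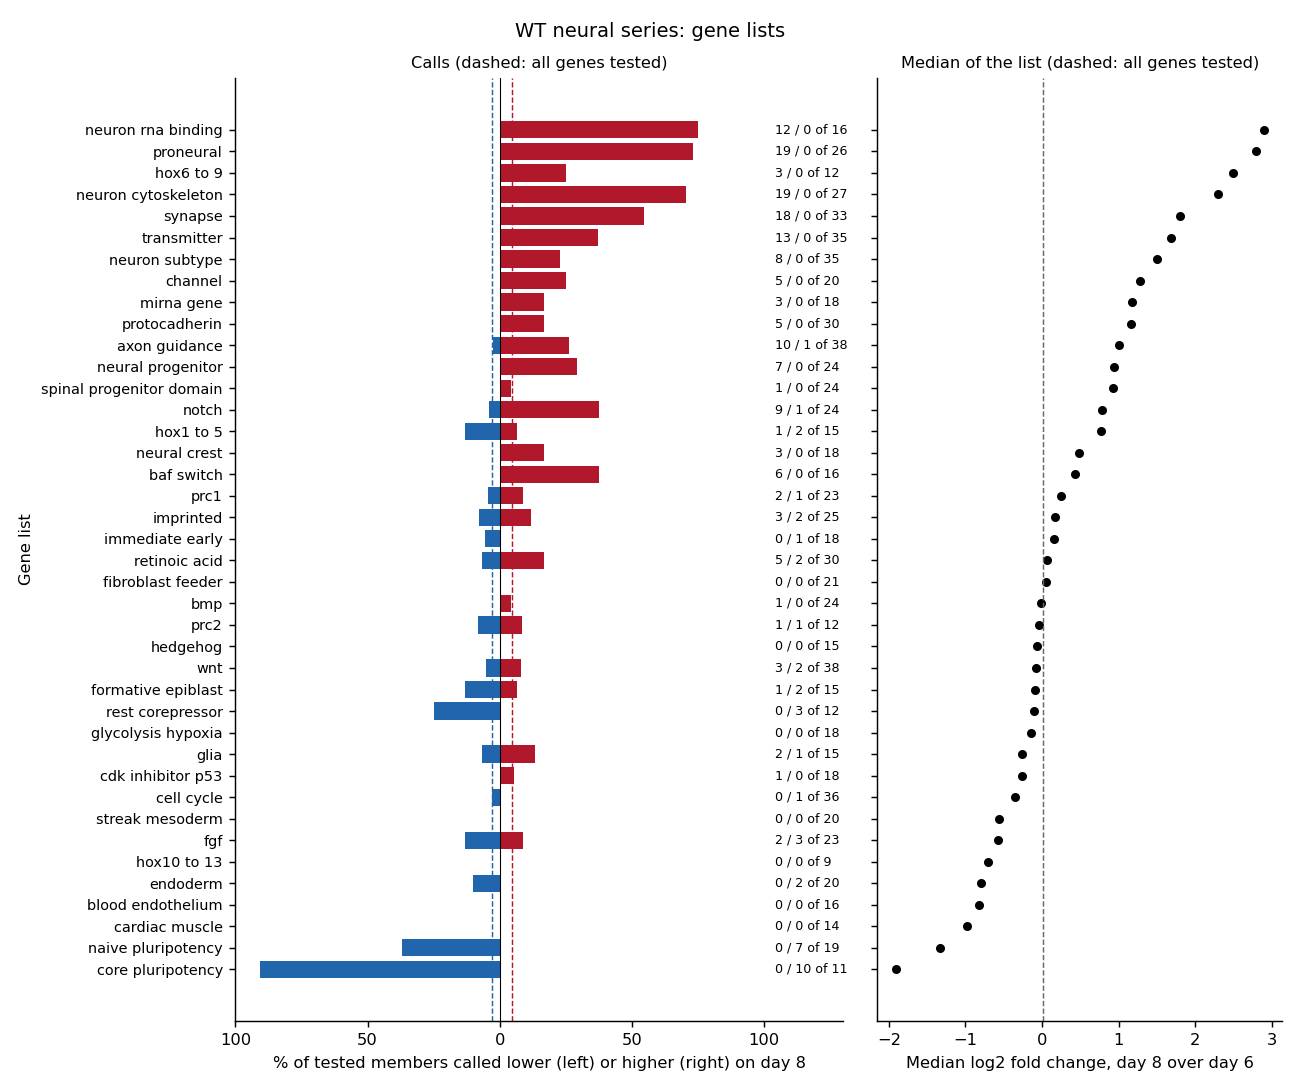
For each of 40 gene lists, the percentage of its tested genes called higher and lower on day 8 and the median log2 change (day 8 over day 6); dashed lines give the same for all genes tested. By share called higher, the RNA-binding (12 of 16), proneural (19 of 26) and cytoskeletal (19 of 27) lists stand highest. Core pluripotency has the largest share called lower, 10 of 11.

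Some neuronal subunits of the BAF chromatin remodelling complex rose. Of 16 genes of the progenitor to neuron BAF switch, 6 rose (37.5%, beside 4.59% of all genes tested), none fell and 10 did not pass (median 0.43). Actl6b, the neuronal actin-like subunit BAF53B, had 6.35, 3.77 and 1.46 CPM on day 8 and 0.0544, 0 and 0.0954 CPM on day 6 (6.27 ± 1.22, adjusted p = 0.0020, edgeR). Bcl11a, a zinc finger subunit, had 126, 45.1 and 66.1 CPM on day 8 and 4.73, 1.69 and 0.890 CPM on day 6 (5.02 ± 0.78), and its paralog Bcl11b had 17.4, 9.39 and 11.7 CPM on day 8 and 0.816, 0.892 and 0.572 CPM on day 6 (4.07 ± 0.67). The days did not overlap for any of the 3. Actl6a, the progenitor counterpart of Actl6b, had 97.2, 57.6 and 74.0 CPM on day 8 and 88.9, 90.7 and 88.7 CPM on day 6 and did not pass (adjusted p = 0.52). Ss18l1 rose by 0.99, a call lost without day 8 replicate 1 or 2 or day 6 replicate 3 (adjusted p up to 0.0881). Without both replicate 1 libraries, 3 genes of the list rose and none fell.

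Of 12 genes of REST, its corepressors and their kin, 3 fell (25.0%, beside 2.75% of all genes tested) and none rose (median -0.11). Rest had 61.6, 73.7 and 75.7 CPM on day 8 and 105, 114 and 123 CPM on day 6, a decrease of 0.69 ± 0.18 on the log2 scale (SE; adjusted p = 0.019, edgeR). Ptbp1, whose loss favours neuronal splicing, had 304, 278 and 298 CPM on day 8 and 473, 502 and 428 CPM on day 6 (-0.67 ± 0.12, adjusted p = 0.0012). Ctdsp1, a phosphatase recruited by REST, had 39.2, 36.4 and 42.3 CPM on day 8 and 70.1, 62.2 and 51.9 CPM on day 6 (-0.64 ± 0.18). Each gene's day 8 libraries lay below its day 6 libraries. Ptbp1 held without each single library. Rest lost the call without any of day 8 replicates 1 and 2 and day 6 replicates 2 and 3 (up to 0.0928), and Ctdsp1 without any of day 8 replicates 1 and 2 and day 6 replicates 1 and 2 (up to 0.118). The seed complement shown above occurs once each in the longest 3′ UTRs of Rest, Ptbp1 and Lin28a and not in those of Ctdsp1, Hes1 or Sox2.

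Of 18 microRNA genes and hosts tested, 3 rose (16.7%, beside 4.59% of all genes tested) and none fell. Their median was 1.18, and 1.03 with genes at 0 on day 6 set to their bound. Mir9-3hg, the host of the miR-9 hairpin shown above, had 76.8, 20.4 and 39.9 CPM on day 8 and 0.816, 0.329 and 0.382 CPM on day 6 (6.48 ± 1.28, adjusted p = 0.0024, edgeR). Mir124a-1hg, named as a host of miR-124, had 51.4, 74.3 and 28.5 CPM on day 8 and 1.93, 0.869 and 0.286 CPM on day 6 (5.63 ± 1.19). C130071C03Rik had 271, 163 and 169 CPM on day 8 and 29.1, 14.6 and 5.98 CPM on day 6 (3.60 ± 0.96, adjusted p = 0.020), a call lost without day 8 replicate 1, day 6 replicate 2 or day 6 replicate 3 (up to 0.12). Every day 8 library was above every day 6 library for all 3. These are host RNAs, and the mature strands were not measured.

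Of 24 Notch pathway genes, 9 rose (37.5%), 1 fell (4.17%) and 14 did not pass (median 0.78), beside 4.59% higher and 2.75% lower over all genes tested. Among ligands, Dll3 had 34.2, 63.0 and 35.6 CPM on day 8 and 3.37, 4.39 and 4.77 CPM on day 6 (3.40 ± 0.70, adjusted p = 0.0034, edgeR), and Dner, a divergent ligand of neurons, had 63.1, 43.6 and 35.1 CPM on day 8 and 1.30, 1.36 and 1.02 CPM on day 6 (5.26 ± 1.07). Mfng, the glycosyltransferase that tunes ligand binding, rose by 2.28 ± 0.43. Among targets, Heyl rose by 3.37 ± 0.70, and Hes5 had 88.1, 85.2 and 103 CPM on day 8 and 7.12, 8.4 and 7.38 CPM on day 6. Hes5 rose by 3.59 ± 1.01 (SE; adjusted p = 0.028), a call lost without any library but day 8 replicate 3 (up to 0.119), although its groups were far apart. Hes1 had 39.5, 38.9 and 42.9 CPM on day 8 and 53.1, 43.4 and 37.4 CPM on day 6 and did not pass. Of the receptors, Notch1 had 441, 313 and 325 CPM on day 8 and 165, 124 and 106 CPM on day 6 and rose by 1.45 (adjusted p = 0.041). Notch2 had 126, 180 and 153 CPM on day 8 and 266, 283 and 236 CPM on day 6 and fell by 0.77 ± 0.18 (adjusted p = 0.011). The call of Notch1 was lost without each library in turn (up to 0.179), and that of Notch2 without day 6 replicate 2 (0.0508). The ligand Dll1 rose by 2.23, a call lost without any library but day 8 replicate 3 (up to 0.147). With both replicate 1 libraries out, 3 of the list's genes rose and none fell.

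Genes of neural progenitors were present on both days. Of 24 tested, 7 rose and none fell (median 0.94). Sox9, which acts in progenitor maintenance and the competence for glia, had 193, 117 and 153 CPM on day 8 and 19.6, 19.6 and 13.8 CPM on day 6 (3.13 ± 0.59, adjusted p = 0.0019, edgeR). Id4 and Nfib rose by 2.78 ± 0.51 and 2.68 ± 0.58. Fabp7, a fatty acid binding protein of radial glia, rose by 5.26 with an uneven day 8 (46.9, 6.86 and 28.0 CPM, against 0.598, 0.704 and 0.827 CPM on day 6) and lost the call, at an adjusted p of 0.050, without day 6 replicate 3. The defining markers did not pass. Sox2 had 266, 169 and 223 CPM on day 8 and 190, 214 and 160 CPM on day 6. Pax6 had 119, 142 and 113 CPM on day 8 and 200, 171 and 129 CPM on day 6, and Nes had 481, 308 and 292 CPM on day 8 and 247, 383 and 223 CPM on day 6. Of these 3, each overlapped between the days. Sox1 had 54.8, 51.7 and 63.2 CPM on day 8 and 86.0, 97.8 and 85.2 CPM on day 6, and Sox3 had 87.1, 94.6 and 101 CPM on day 8 and 43.4, 39.9 and 36.4 CPM on day 6. These 2 SOXB1 genes did not overlap and had opposite signs, with log2 changes of -0.67 for Sox1 (adjusted p = 0.74, and 0.012 in the paired fit) and 1.24 for Sox3 (0.44, and 0.0014 in the paired fit). In the paired fit 14 of the list's genes rose and 1 fell, and without both replicate 1 libraries 3 rose and none fell. Of 24 factors that divide the spinal progenitor zone, 1 rose (4.17%, beside 4.59% of all genes tested) and none fell. It was Gsx1, whose call was lost without day 6 replicate 2 or 3 (up to 0.0936). In the paired fit 7 of 23 rose and 1 fell, beside 11.0% higher and 9.10% lower over all genes. Olig2, of the ventral motor neuron domain, stayed at 0.237, 2.02 and 3.08 CPM on day 8 and 0.544, 2.07 and 2.29 CPM on day 6.

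Of 30 genes of retinoic acid synthesis, breakdown and response, 5 rose (16.7%) and 2 fell (6.67%), with a median of 0.06. Over all genes the shares were 4.59% and 2.75%. Both that fell are also on the Hox list. Cyp26b1, which breaks down retinoic acid, had 1460, 1497 and 1139 CPM on day 8 and 151, 139 and 107 CPM on day 6 (3.37 ± 0.60, adjusted p = 0.0011, edgeR). Cyp26a1, which does the same and holds the DR5 shown above, had 218, 174 and 198 CPM on day 8 and 214, 115 and 144 CPM on day 6 and did not pass (0.32 ± 0.70, adjusted p = 0.85). Among receptors, Rara had 265, 207 and 212 CPM on day 8 and 111, 108 and 102 CPM on day 6 (1.09 ± 0.22, adjusted p = 0.0025), and Rarb had 273, 204 and 197 CPM on day 8 and 98.2, 109 and 82.8 CPM on day 6 (1.22 ± 0.30, adjusted p = 0.012). Dhrs3, a retinaldehyde reductase, rose by 1.43 ± 0.32. Rarb and Dhrs3 lost their calls without day 8 replicate 1 or day 6 replicate 3 (up to 0.085 for Rarb and 0.0516 for Dhrs3). Crabp2, the carrier that delivers retinoic acid to its receptors, had 168, 271 and 256 CPM on day 8 and 538, 701 and 669 CPM on day 6, and Stra8, a gene named for its response to retinoic acid, had 17.8, 23.1 and 54.3 CPM on day 8 and 164, 91.5 and 147 CPM on day 6. Neither passed (adjusted p = 0.16 for Crabp2 and 0.082 for Stra8), although no day 8 library reached a day 6 one, and both passed in the paired fit (0.00063 for Crabp2 and 0.0038 for Stra8).

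Hox genes, ordered from anterior to posterior along each cluster, are given here by group number. Of 15 genes of groups 1 to 5, 1 rose (6.67%, beside 4.59% of all genes tested) and 2 fell (13.3%, beside 2.75%). The median was 0.76, with 12 of the 15 above 0. In the paired fit 10 rose and 2 fell, beside 11.0% higher and 9.10% lower over all genes. The summed level was 2093, 2254 and 1779 CPM on day 8 and 1397, 1350 and 915 CPM on day 6. Hoxb1, which fell, had 7.42, 9.72 and 13.1 CPM on day 8 and 32.0, 30.1 and 29.6 CPM on day 6 (-1.6 ± 0.43, adjusted p = 0.020, edgeR). Hoxa3 had 142, 161 and 144 CPM on day 8 and 81.7, 54.4 and 52.3 CPM on day 6 (1.25, adjusted p = 0.029). Of 12 genes of groups 6 to 9, 3 rose (25.0%) and none fell (median 2.49), and 9 of 11 rose in the paired fit. Hoxa6 had 55.7, 28.4 and 31.8 CPM on day 8 and 3.18, 0.634 and 0.318 CPM on day 6 (4.80 ± 1.16, adjusted p = 0.011), and Hoxc6 and Hoxd8 rose by 3.50 and 2.21. The calls of these 5 genes were each lost without day 6 replicate 2 or day 6 replicate 3, those of Hoxc6 and Hoxd8 also without day 8 replicate 1, and those of Hoxb1 and Hoxa3 also without day 8 replicate 1 or 2. The highest adjusted p ran between 0.0757 for Hoxa6 and 0.379 for Hoxd8. Replicate 1 had the highest Hoxb9 on both days. Hoxb9 had 1036, 264 and 309 CPM on day 8 and 155, 3.29 and 2.35 CPM on day 6, and did not pass (adjusted p = 0.13, and 0.030 in the paired fit). Of 9 genes of groups 10 to 13 none passed. Without both replicate 1 libraries, 2 genes of groups 6 to 9 rose, and 1 of groups 1 to 5 fell.

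Most core pluripotency genes fell, and most naive and formative ones did not pass. Of 11 core genes, 10 fell and none rose (median -1.91), and their summed level was 420, 507 and 518 CPM on day 8, against 985, 1253 and 1240 CPM on day 6 and 4455, 3574 and 3477 CPM on day 0. Sall4 had 40.1, 109 and 99.0 CPM on day 8 and 206, 261 and 264 CPM on day 6 (-1.56 ± 0.33, adjusted p = 0.0041, edgeR). Trim71, a ubiquitin ligase that lies in the let-7 pathway, had 40.4, 87.6 and 63.9 CPM on day 8 and 189, 225 and 242 CPM on day 6 (-1.77 ± 0.34), and Lin28b fell by 1.35 ± 0.29. Lin28b had been low on day 0: its mean level was 54.9 CPM on day 8, 140.1 CPM on day 6 and 56.9 CPM on day 0. Nanog had 1.48, 2.96 and 7.81 CPM on day 8 and 12.2, 24.1 and 25.5 CPM on day 6 (-2.35 ± 0.55, adjusted p = 0.0091), a call lost without day 8 replicate 1 or 2 (up to 0.0593). Pou5f1, which encodes OCT4, had 1.6, 3.88 and 8.11 CPM on day 8 and 7.29, 18.5 and 26.1 CPM on day 6, beside a mean of 840 CPM on day 0. It fell by 1.95 ± 0.57 with overlapping groups, and lost the call without any of day 8 replicates 1 and 2 and day 6 replicates 2 and 3 (up to 0.182). Of 19 naive pluripotency genes, 7 fell and none rose (median -1.33), among them Esrrb (-1.92 ± 0.44), and of 15 formative genes 1 rose (Foxd3) and 2 fell, Nodal and the DNA methyltransferase gene Dnmt3b (-1.26 ± 0.21). The summed levels did not follow the core genes. The naive sum was 624, 594 and 636 CPM on day 8 and 537, 592 and 614 CPM on day 6. The formative sum was 1458, 1092 and 1120.1 CPM on day 8 and 1005, 871 and 765 CPM on day 6, with no overlap. Replicate 1 had the lowest sum of the core genes on both days; without the replicate 1 libraries 5 core and 5 naive genes fell and none rose.

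**Figure D4:**
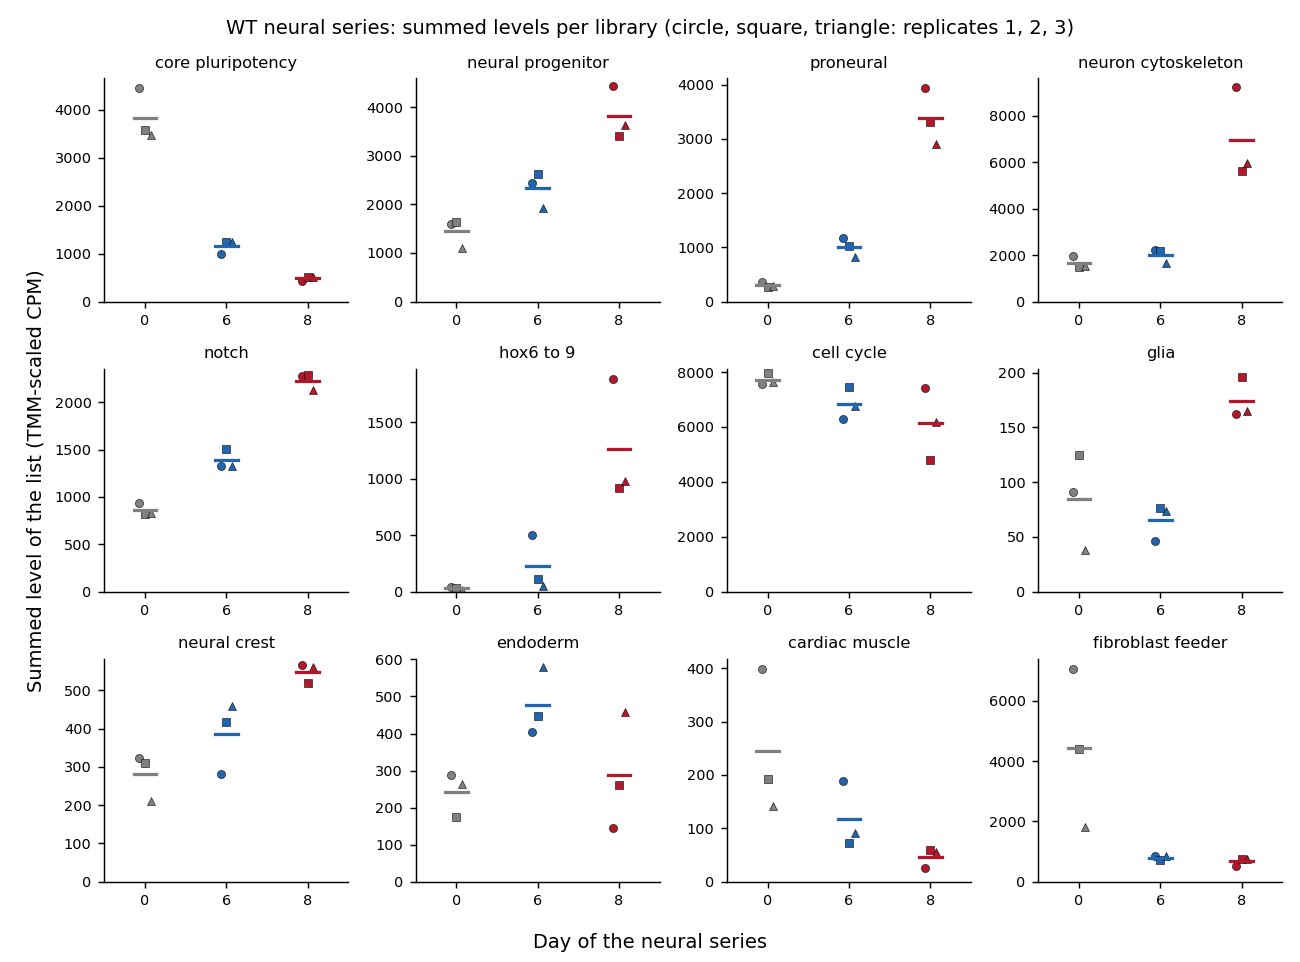
Summed level of 12 gene lists in each WT library on days 0, 6 and 8, in CPM. The core pluripotency sum is lower on each later day, the proneural and cytoskeletal sums are highest on day 8, and replicate 1 lies highest in the neuronal lists on day 8.

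Signalling genes outside Notch and retinoic acid are given gene by gene. Over all genes tested, 4.59% rose and 2.75% fell. Of 38 Wnt pathway genes 3 rose and 2 fell (median -0.08). Wnt7b, a ligand of the developing nervous system, had 33.5, 21.5 and 40.6 CPM on day 8 and 1.5, 3.36 and 4.04 CPM on day 6 (3.43 ± 0.58, adjusted p = 0.00079, edgeR), while Tcf7, a transcription factor and target of the pathway, had 16.4, 30.2 and 29.95 CPM on day 8 and 52.4, 81.7 and 95.1 CPM on day 6 (-1.58 ± 0.31). The other gene that fell was Sfrp5, given above. Wnt4 rose by 2.81, a call lost without day 8 replicate 1, day 6 replicate 2 or day 6 replicate 3 (up to 0.0749), and Wnt7a by 3.31, a call lost without day 6 replicate 2 or 3 (up to 0.0852). Of 23 FGF pathway genes 2 rose and 3 fell (median -0.57). Etv5, an ETS factor induced by FGF, had 3.50, 5.01 and 7.84 CPM on day 8 and 34.3, 28.7 and 24.7 CPM on day 6 (-2.43 ± 0.33, adjusted p = 9.29e-05). Fgf4, made by pluripotent cells, and Dusp6, a feedback phosphatase, fell by 3.01 and 1.15, and the receptor Fgfr3 rose by 2.15, all with calls lost without 2 or more of the libraries in turn (up to 0.0781 for Fgf4, 0.244 for Dusp6 and 0.093 for Fgfr3). Fgf4 was lost without day 8 replicate 2 or day 6 replicate 3, Dusp6 without any library but day 6 replicate 2, and Fgfr3 without day 8 replicate 2 or any of the day 6 libraries. Of 24 BMP genes 1 rose, the receptor Bmpr1b (1.70), with a call lost without day 8 replicate 1, day 6 replicate 2 or day 6 replicate 3 (up to 0.146). Of 15 hedgehog genes none passed; Gli1, a readout of hedgehog signalling, had 12.3, 18.9 and 15.4 CPM on day 8 and 49.4, 24.7 and 25.4 CPM on day 6 (adjusted p = 0.15, and 0.046 in the paired fit).

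Of 36 proliferation genes 1 fell (2.78%, beside 2.75% of all genes tested) and none rose (median -0.35). The 1 gene was Cdt1, a replication licensing factor (adjusted p = 0.038, edgeR). Its call was lost without any library but day 6 replicate 1 (up to 0.22). In the paired fit 3 of the 36 rose and 10 fell, beside 11.0% higher and 9.10% lower over all genes. Mki67 had 679, 629 and 719 CPM on day 8 and 451, 925 and 740 CPM on day 6, and the groups overlapped. The cell cycle inhibitor Cdkn1c, also called p57, had 524, 313 and 333 CPM on day 8 and 60.3, 68.5 and 62.2 CPM on day 6. It rose by 2.62 ± 0.30 (SE; adjusted p = 3.2e-05, edgeR), with every day 8 library far above day 6. It was the 1 gene called among 18 CDK inhibitor and p53 genes (5.56% higher, beside 4.59% of all genes tested). Cdkn1c is also imprinted; of 25 imprinted genes 3 rose, with Peg13 (2.05) and Nnat (1.58), and 2 fell, Mest (-0.82) and Impact (-0.95). All but Cdkn1c lost the call without single libraries, which were day 8 replicate 1 or day 6 replicate 3 for Nnat (up to 0.0889) and also day 6 replicate 2 for Peg13 (up to 0.137), any library for Mest (up to 0.12), and day 8 replicate 2 or 3 or day 6 replicate 1 or 2 for Impact (up to 0.172). Ccnd1, the cyclin of the G1 phase, had 109, 83.9 and 116 CPM on day 8 and 31.5, 39.8 and 40.7 CPM on day 6 (adjusted p = 0.053, and 0.0015 in the paired fit).

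Of 23 PRC1 genes 2 rose and 1 fell, Cbx7 (median 0.25), and of 12 PRC2 genes 1 rose and 1 fell, beside 7.34% of all genes called in either direction. In the paired fit 6 PRC1 genes rose and 4 fell, and 1 PRC2 gene rose and 3 fell. Without both replicate 1 libraries no PRC1 gene passed, and 1 PRC2 gene fell. The chromobox genes Cbx2, Cbx6 and Cbx8 did not pass. Cbx2, whose protein compacts chromatin, had 89.6, 83.4 and 81.7 CPM on day 8 and 109, 95.3 and 90.7 CPM on day 6, with no overlap but a log2 change of only -0.21 (adjusted p = 0.64). Cbx6 had 56.3, 52.2 and 49.7 CPM on day 8 and 48.4, 43.9 and 33.3 CPM on day 6, and Cbx8 had 8.04, 6.76 and 6.38 CPM on day 8 and 4.02, 3.10 and 2.10 CPM on day 6 (adjusted p = 0.13, edgeR, and 0.023 in the paired fit). The PRC1 genes that rose were Auts2 (1.49), a subunit of an activating form of the complex in neurons, and Scmh1 (1.22), and in PRC2 Jarid2 (0.93) rose and Phf19 (-1.50) fell. All 4 lost the call without 3 or 4 of the libraries in turn, each of them without day 8 replicate 1 or day 6 replicate 3, Auts2 also without day 6 replicate 2, Scmh1 and Phf19 without day 8 replicate 2 or day 6 replicate 2, and Jarid2 without day 8 replicate 2 or day 6 replicate 1, with highest adjusted p of 0.148 for Auts2, 0.167 for Scmh1, 0.115 for Jarid2 and 0.0852 for Phf19. Ezh2, the methyltransferase of PRC2, had 256, 174 and 195 CPM on day 8 and 165, 194 and 158 CPM on day 6 and did not pass.

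Markers of other cell types were counted to see what else the aggregates held. None of 20 primitive streak and mesoderm, 14 cardiac, 16 blood and endothelial or 21 fibroblast and feeder genes passed in either direction. Over all genes tested, 7.34% were called. In the paired fit, 1 of 18 streak and mesoderm genes rose and 1 fell, and 1 of 15 fibroblast genes rose and 1 fell. In the same fit 2 of 12 cardiac and 4 of 13 blood and endothelial genes fell. Over all genes that fit called 11.0% higher and 9.10% lower. The summed levels of the lists were 38.7, 107 and 86.6 CPM (streak and mesoderm), 25.7, 58.8 and 55.5 CPM (cardiac), 20.7, 53.3 and 78.4 CPM (blood and endothelium) and 520, 755 and 753 CPM (fibroblasts) on day 8. On day 6 the sums were 66.3, 118 and 115 CPM (streak and mesoderm), 190, 73.1 and 91.8 CPM (cardiac), 26.9, 101 and 129 CPM (blood and endothelium) and 847, 707 and 844 CPM (fibroblasts). T, the streak factor, stayed at or under 0.225 CPM on day 8 and 0.381 CPM on day 6, and Ptprc had counts in 1 library of day 8 and none of day 6. Of 20 endoderm genes 2 fell and none rose, against 6 and 1 in the paired fit. Hhex (-1.70), an early endoderm factor, was one of them, with a call lost without day 8 replicate 2 or day 6 replicate 3 (adjusted p up to 0.159). The endoderm sum was 144, 262 and 458 CPM on day 8 and 403, 447 and 580 CPM on day 6, lowest in replicate 1 on both days. In replicate 1 of day 8 each of these 5 sums was the lowest of that day, while the cytoskeletal and proneural sums were the highest; its part in the neuronal results was not tested beyond the counts without replicate 1 given above.

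Of 18 neural crest genes, 3 rose (16.7%, beside 4.59% of all genes tested) and none fell. Foxd3, an early crest factor also used in dorsal interneurons, had 8.78, 5.49 and 6.08 CPM on day 8 and 0.381, 0.587 and 0.382 CPM on day 6 (3.90, adjusted p = 0.0071, edgeR), and Tfap2a rose by 3.05, a call lost without day 6 replicate 1 or 2 (up to 0.0542). The third was Eya1 (1.44), a call lost without each library in turn (up to 0.147). Sox10, a defining crest marker, had 0.237, 0.484 and 0.901 CPM on day 8 and 0.109, 1.15 and 4.71 CPM on day 6. Of 15 glial genes 2 rose (13.3%) and 1 fell (6.67%), beside 4.59% higher and 2.75% lower over all genes tested. Slc1a2, the glutamate transporter of astrocytes and radial glia, had 128, 111 and 96.3 CPM on day 8 and 9.90, 11.8 and 8.17 CPM on day 6 (3.49 ± 0.77, adjusted p = 0.0059). Mog, a myelin gene, rose by 1.57 and Aldh1l1 fell by 1.83, at levels of at most 3.88 CPM. The call of Mog was lost without any library but day 8 replicate 3 (up to 0.165) and in the paired fit (0.0802), and that of Aldh1l1 without any library but day 6 replicate 1 (up to 0.178). Gfap and Aqp4, which define mature astrocytes, were at most 0.296 CPM on day 8 and 0.422 CPM on day 6 in any library. The crest sum was 565, 519 and 561 CPM on day 8 and 280, 418 and 458 CPM on day 6, and the glial sum 162, 196 and 165 CPM on day 8 and 46.4, 76.4 and 73.7 CPM on day 6. Of 30 protocadherins and cadherins 5 rose (16.7%, beside 4.59% of all genes tested) and none fell (median 1.16), led by Cdh8 (4.11 ± 0.62). The others were Pcdh9, Pcdh10, Pcdhb2 and Pcdhb16, with increases of 2.33 to 3.52 and calls lost without day 6 replicate 2 or 3 (up to 0.0738 for Pcdh9, 0.137 for Pcdh10, 0.0902 for Pcdhb2 and 0.116 for Pcdhb16). Pcdhb2, Pcdhb16 and Pcdh10 were also lost without day 8 replicate 1, and Pcdh10 without day 8 replicate 2 or day 6 replicate 1. Of 18 immediate early genes 1 fell (5.56%, beside 2.75% of all genes tested). The gene was Myc, with 20.9, 13.2 and 10.6 CPM on day 8 and 84.8, 63.4 and 64.4 CPM on day 6. Its call was lost without day 8 replicate 2 or 3 or day 6 replicate 1 or 3 (adjusted p up to 0.0905).

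The same step was available in 3 more lines, with 3 libraries a day each. CBX7-CaPS carries the compaction and phase separation domain of CBX2, CBX7-mCaPS a mutated form of it, and the line labelled KO was made to lack CBX7, although it still held 14.7, 20.8 and 47.5 CPM of Cbx7 on day 8 and 27.9, 35.0 and 32.9 CPM on day 6. The step called 421 higher and 146 lower genes in CaPS, 32 and 15 in mCaPS, and 602 and 290 in KO, beside 818 and 490 in WT. Tested directly as an interaction with edgeR over all 36 libraries, no gene's step differed from that of WT in CaPS, mCaPS or KO (0 of 17818 in each). At an unadjusted p below 0.05 there were 399 genes in CaPS, 1523 in mCaPS and 399 in KO, and DESeq2 called 1, 70 and 0. With no difference in any step, a fraction of 0.05 of the 17818 genes would lie below that unadjusted p. The edgeR counts of CaPS and KO were under that number and the count of mCaPS was above it. Of the 818 genes that rose in WT, CaPS called 314 higher (38.4% of the WT calls and 74.6% of its own), mCaPS 17 (2.08% and 53.1%) and KO 450 (55.0% and 74.8%). Of the 490 that fell in WT, 85, 8 and 156 were called lower in CaPS, mCaPS and KO (17.3%, 1.63% and 31.8% of the WT calls, and 58.2%, 53.3% and 53.8% of the lines' own). The overlap of calls depends on the size of each line's step, set against a spread that all lines share in this fit. The 818 genes had the same sign in 99.4% of cases in CaPS, 85.6% in mCaPS and 99.5% in KO, with median log2 changes of 1.44, 0.47 and 1.5, beside 1.93 in WT, where they were chosen. The day 8 libraries numbered 3 of mCaPS and KO stood apart from their groups, and without them the steps called 97 higher and 28 lower genes in mCaPS, 910 and 685 in KO, and 1026 and 847 in WT, whose spread is estimated in the same fit.

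The lines' own calls are given for 2 lists. Of the 26 proneural genes, 13 rose in CaPS, 0 in mCaPS and 18 in KO, beside 19 in WT, with medians of 2.87, 1.02, 2.46 and 2.79. Of the 11 core pluripotency genes, 8 fell in CaPS, 1 in mCaPS and 10 in KO, beside 10 in WT. Cyp26b1 had 593, 376 and 151 CPM on day 8 and 586, 201 and 362 CPM on day 6 in mCaPS, a log2 change of -0.04, which differed from the WT step by -3.40 ± 0.79 (SE) at an unadjusted p of 0.00018 and an adjusted p of 0.16 (edgeR). Robo3 had 10.3, 11.8 and 3.91 CPM on day 8 and 1.67, 0.640 and 1.48 CPM on day 6 in mCaPS, and its step differed from that of WT by -3.81 ± 0.98 (adjusted p = 0.20). Tubb3 had 14.7, 11.7 and 1.78 CPM on day 8 and 1.13, 1.37 and 0.814 CPM on day 6 in mCaPS: its level was lower than in any WT library of the same day, while its step was 3.09 and differed from the WT step by -0.18 ± 1.23 (adjusted p = 0.99). Replicates of the lines varied widely, and Tubb3 on day 8 had 390, 19.6 and 78.1 CPM in CaPS and 203, 186 and 16.1 CPM in KO. In a fit of the 12 WT and mCaPS libraries with the replicate number as a block, 171 genes had a step that differed from that of WT (38 more positive and 133 more negative in mCaPS), and 12 without the block, while CaPS and KO had 0 in either.

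**Figure D5:**
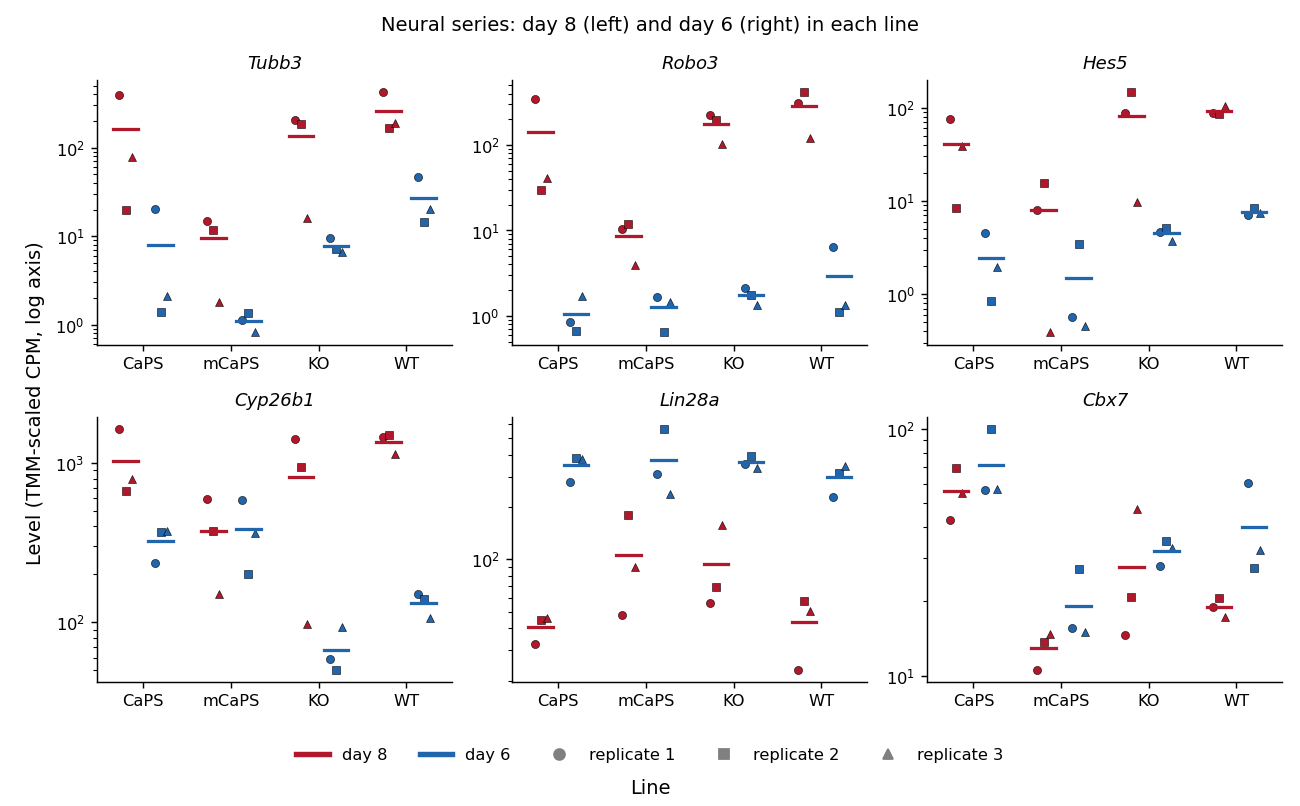
Levels of Tubb3, Robo3, Hes5, Cyp26b1, Lin28a and Cbx7 in each library of the CaPS, mCaPS, KO and WT lines, in CPM on a log axis, with day 8 left of day 6 and a bar for the mean of 3. In mCaPS Cyp26b1 overlaps between the days, in WT its day 8 libraries (1460, 1497 and 1139 CPM) lie above day 6 (151, 139 and 107 CPM).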

How the data were processed

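The submitters' processing notes name the mouse build mm10, the aligner STAR 2.7.0, the counter featureCounts 1.6.3, and also cutadapt 1.14, HOMER 4.10.4 and edgeR. Which tool made the table is not given in the sources used here, nor is the strand setting, so overlapping antisense genes cannot be told apart. The deposited table holds raw read counts for 24984 genes in 36 libraries, with no normalization by the authors. Most small counts were even, as when both reads of a pair are counted, so counting intervals may be too narrow. All 36 columns matched a sample. Members and gene lists were chosen with earlier results of these data known.

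The model was edgeR 4.0.16 in R 4.3.3 (limma 3.58.1): filterByExpr (17818 genes kept), TMM scaling, and a quasi-likelihood model of 12 groups of line and day, which share one estimate of the spread (24 residual degrees of freedom, common dispersion 0.127). Tests were two-sided F tests with Benjamini-Hochberg adjustment over all genes tested, called below 0.05. CPM are computed from the counts after TMM scaling. Exon length and gene position are those of the count table. The step of each other line was tested against WT as an interaction. The fitting was tested on simulated data.

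Named genes were the 15 highest and 15 lowest log2 changes among calls with a mean of at least 5 CPM on the higher day and no overlap, and the 4 lowest p among calls in each of 40 lists (876 genes). Further list members are named for a role, whatever their p. Some genes that the rule names are not reported here.

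Replicate numbers were taken to pair the WT libraries, since the deviations of same-numbered libraries from their group means correlated at 0.511, 0.159 and 0.559 over 13060 genes, although day 8 replicate 2 correlated more with day 6 replicate 3 (0.21); the labels do not say what a number shares. Alternatives were DESeq2 1.42.0, RLE scaling, no filter, Rn45s left out, fits of the WT libraries alone, a test against a 1.5-fold change, the replicate block and each replicate left out. Leaving out both WT libraries numbered 1, leaving out the mCaPS and KO day 8 libraries numbered 3, and other TMM references were added after seeing the data.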

Additional observations from a re-analysis of the deposited data

How the results depend on the processing

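The comparison as reported gave 818 higher and 490 lower genes, 1308 in all. With the replicate block (a fit of the 6 WT libraries) the counts were 1712 higher, 1413 lower and 3125 in all; with a test against a 1.5-fold change they were 306, 71 and 377; with DESeq2 823 were lower and 1971 called in all. With both WT libraries numbered 1 left out they were 220, 166 and 386, and with the mCaPS and KO day 8 libraries numbered 3 left out 847 were lower. Leaving out 1 WT library at a time gave 291 to 741 higher, 134 to 431 lower and 442 to 1172 in all. The share of higher calls was 62.5% as reported, 66.0% in the fit of the 6 WT libraries with no block (1050 higher, 541 lower, 1591 in all), 54.8% with the block, 81.2% in the test against a 1.5-fold change, and 58.5 to 77.7% with 1 WT library left out. For the step relative to WT, CaPS gave 1 gene with DESeq2, and mCaPS gave 70 with DESeq2, 1 without the low count filter, 12 in the fit of 12 libraries and 171 with the block; leaving out 1 library gave 0 to 0 in CaPS, 0 to 1 in mCaPS and 0 to 1 in KO. Of the 122 genes named by the rule, none changed direction, 73 were called in every fit without a library and 85 in every other alternative listed at the start, while 49 lost the call with both WT libraries numbered 1 left out. The block ended the call of 1 of them, Mog (adjusted p = 0.0802), and where it made a call for another gene the value stands in the text. Of further genes, none of them called, the sign changed with a library left out for Sox2 (-0.023 to 0.379), Nes (-0.008 to 0.614) and Mki67 (-0.303 to 0.181), and with both libraries numbered 1 left out for Sox2 (-0.013), Nes (-0.097) and Ezh2 (-0.010).

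Which limit weighs more on the calls, the 3 libraries a day or the depth, was not tested. For genes with 0 to 3 counts on one day the size of the ratio is imprecise, as the wide counting intervals above show.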
